A study of Caenorhabditis elegans with 6 samples.

Results

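The regions described here are the binding sites of the transcription factor PHA-4 on chromosome IV of *Caenorhabditis elegans*, taken as every line of the series-level peak list that lies on that chromosome. They number 2401 of the 12404 peaks in that list. The peaks of 3 replicate lists on the same chromosome, 974 of 5320 in replicate 1, 579 of 2802 in replicate 2 and 367 of 1900 in replicate 3, were used as replicate support. A peak is a stretch in which more DNA fragments were recovered by chromatin immunoprecipitation and sequencing (ChIP-seq) than the peak caller's background allowed.

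PHA-4 is the FoxA-type forkhead factor of the worm. It binds DNA directly, is required for cells of the embryo to form the pharynx (the feeding organ), and acts later in the gut and other tissues. Mammalian FoxA proteins are known to bind compacted chromatin and open it. Chromosome IV is an autosome. In the worm, the centres of the autosomes hold more of the conserved and widely expressed genes, and the arms hold more repeats and recombine more often.

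Besides the 3 ChIP libraries the study has 3 input libraries, made from sonicated chromatin without precipitation and not analysed here. All came from strain OP37, whose background is unc-119(ed3) III. Its transgene wgIs37 carries a working unc-119(+) copy together with the fusion gene pha-4::TY1::EGFP::3xFLAG, so every worm had the unc-119 mutation, its rescue and tagged pha-4 in addition to the native gene. The transgene was made by bombardment and exists here as 1 line, in which the tagged protein is driven by pha-4 sequence. Worms were grown at 20 °C on bacteria, harvested at the L4 larval stage, fixed in 2% formaldehyde and precipitated with antibodies against GFP. Whole worms were used, so a peak cannot be assigned to a tissue. The titles say male and the recorded sex is hermaphrodite, a conflict that was not resolved. Whether the replicates are separate cultures is not in the labels, so the p-values below measure only the spread between these libraries, which may be technical. Positions are those of build WormBase WS220. Genes and sequences at the peaks are not given, since the gene table used here belongs to another build. The lists give 1 significance value per peak and no read count, so library depth is unknown. The value serves below only to rank peaks within a list, with rank 1 the lowest value, and ranks from lists of different length are not compared with one another.

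Chromosome IV carried more PHA-4 peaks for its length than the other chromosomes as a whole, in each of the 3 replicates. Density was 55.7 peaks per Mb on chromosome IV against 52.5 on the other chromosomes in replicate 1. In replicate 2 it was 33.1 against 26.9 peaks per Mb, and in replicate 3 it was 21.0 against 18.5. All 3 differences had the same sign, between 2.46 and 6.24 peaks per Mb. The mean difference was 3.95 ± 2.01 peaks per Mb (SD, n = 3; exact two-sided sign-flip permutation test, p = 0.25). That is the smallest p that 3 replicates allow, so the test could not reach 0.05.

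The excess was small beside the difference between replicates. Chromosome IV took 18.3% of the peaks of replicate 1 (95% exact interval 17.3 to 19.4%), 20.7% of replicate 2 (19.2 to 22.2%) and 19.3% of replicate 3 (17.6 to 21.2%), against 17.4% of the span. These intervals cover counting error only. The interval of replicate 1 reached below the share of the span, and that of replicate 3 began just above it. In the series-level list the share was 19.4% (18.7 to 20.1%), or 137 peaks per Mb on chromosome IV against 121 on the others. Chromosome IV was not the densest chromosome in any list. Chromosome III came first in all 4 lists, with 73.7, 39.8 and 28.2 peaks per Mb in replicates 1, 2 and 3. Chromosome I also exceeded IV in replicate 1 (62.3 peaks per Mb) and in the series-level list (145). Chromosome II was close to it in replicate 3, at 20.8 peaks per Mb. The pooled others include chromosome V, the sparsest in all 4 lists, which lowers their density. It had 36.2, 19.0 and 12.9 peaks per Mb in replicates 1, 2 and 3, and 86.9 in the series-level list. A comparison without chromosome V was not made.

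The strongest binding was not concentrated on chromosome IV. It held 0 of the 10 best peaks of the series-level list (95% exact interval 0 to 30.8%), 9 of the best 50, 20 of the best 100 and 172 of the best 1000, or 17.2% (14.9 to 19.7%). Of the worst 500 peaks it held 112, or 22.4% (18.8 to 26.3%). The median rank of its peaks was 6897, against 6045 for peaks on the other chromosomes. The replicate lists gave 16, 16 and 21 chromosome IV peaks among their best 100 for replicates 1, 2 and 3. These shares lie around the 19.4% of all series-level peaks that are on the chromosome.

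Median peak widths on chromosome IV and elsewhere differed by at most 39 bp. The median was 377 bp on chromosome IV against 374.5 bp on the other chromosomes in replicate 1, 431 against 449 bp in replicate 2, and 427 against 466 bp in replicate 3. The sign of the difference was thus not the same in all replicates (mean -18.2 ± 20.8 bp, SD, n = 3; exact two-sided sign-flip permutation test, p = 0.5). The mean difference was -28.5 bp without replicate 1 and -7.75 bp without replicate 3. In the series-level list the median was 294 bp on chromosome IV against 333 bp on the others together. A median this low was not particular to chromosome IV, since chromosomes I and III had 293 and 294 bp. Chromosomes II, V and X had 331, 366 and 411 bp. Peaks of 1000 bp or more made up 5.65%, 5.87% and 10.1% of the chromosome IV peaks in replicates 1, 2 and 3, against 5.36%, 7.74% and 8.22% elsewhere. In the series-level list they made up 5.91%, against 6.86% elsewhere. In total the peaks of replicates 1, 2 and 3 covered 2.51%, 1.69% and 1.16% of chromosome IV, against 2.45%, 1.5% and 1.07% of the other chromosomes. The covered share was higher on chromosome IV in all 3 replicates, by 0.0549 to 0.187 percentage points.

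**Figure D1:**
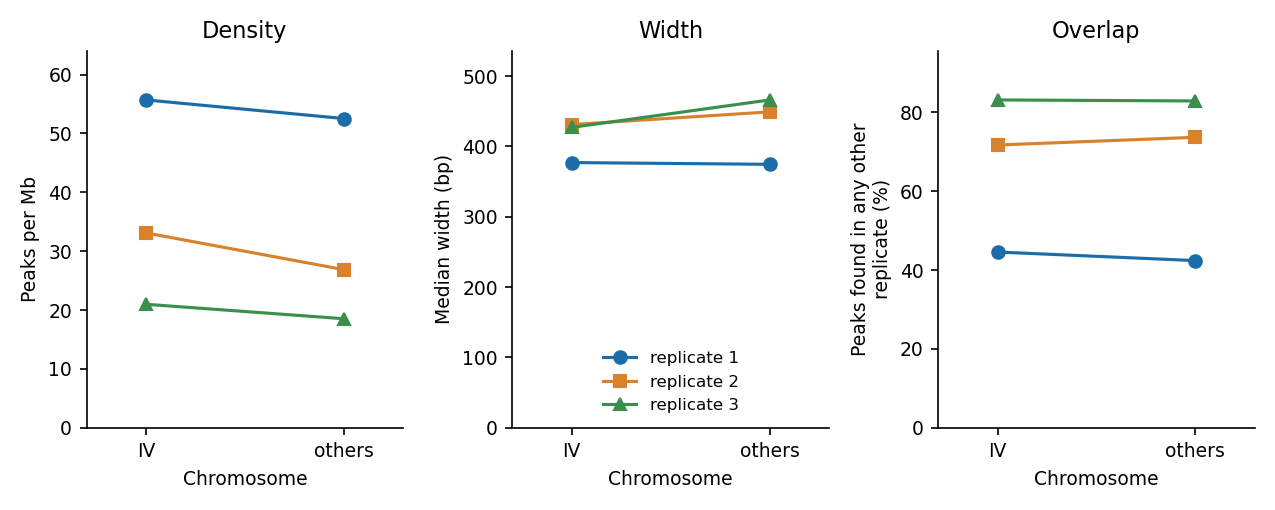
Each panel plots 1 value per replicate list for chromosome IV (left) and for the other chromosomes together (right): peaks per Mb, median peak width in bp, and percent of peaks that overlap a peak of any other replicate. Lines join the values of a replicate. Density is higher on chromosome IV in all 3 replicates (55.7, 33.1 and 21.0 against 52.5, 26.9 and 18.5), while width and overlap move in different directions between replicates.

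The share of peaks found again in another replicate differed between chromosome IV and the rest by at most 2.17 percentage points in any replicate. Of the chromosome IV peaks of replicate 1, 434 of 974 (44.6%, 95% exact interval 41.4 to 47.7%) overlapped a peak of replicate 2 or 3 by at least 1 bp, against 42.4% on the other chromosomes and 42.8% of the whole list. In replicate 2 it was 415 of 579 (71.7%, 67.8 to 75.3%), against 73.6% elsewhere and 73.2% in all. In replicate 3 it was 305 of 367 (83.1%, 78.9 to 86.8%), against 82.8% elsewhere and 82.9% in all. The shares on chromosome IV were near those of the whole lists, so they say nothing particular to it. The difference was 0.158 ± 2.07 percentage points (SD, n = 3; exact two-sided sign-flip permutation test, p = 0.75), and its sign depended on the setting. It was 1.93 points without replicate 1, -0.58 without replicate 2 and -0.489 without replicate 3. It became -3.97 points when an overlap of 50% of both peaks was required (exact sign-flip permutation test, p = 0.25).

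The positions of sites called in 2 replicates were compared by their midpoints. Pairs in which 1 chromosome IV peak of a replicate met exactly 1 of another numbered 341 for replicates 1 and 2, 249 for 1 and 3, and 223 for 2 and 3. Their midpoints were a median of 76.5, 77.5 and 71 bp apart, and 56.3%, 60.2% and 61.4% of pairs lay within 100 bp. The farthest pair was 918.5 bp apart, between replicates 1 and 3. Overlap was the condition for a pair, which by itself limits these distances to about the width of a peak. Spearman's rho of the significance ranks was 0.35, 0.50 and 0.45, and of the widths 0.44, 0.54 and 0.51. These are descriptions over peaks of the same chromosome and libraries, which are not independent, and carry no p.

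PHA-4 binding was densest in a broad central stretch of chromosome IV and thinnest from 15 to 17 Mb, near its right end. Its end was set at position 17489641, where the last peak of the 4 lists ends, and it was divided into windows of 1 Mb, of which 17 are full. In the series-level list the full windows held between 96 and 174 peaks, with a median of 138. The window from 11 to 12 Mb held the most, 174 peaks, followed by 8 to 9 Mb and 10 to 11 Mb with 168 each. The windows from 15 to 16 Mb and 16 to 17 Mb held the fewest, 96 each, and those from 0 to 1 Mb and 14 to 15 Mb the next fewest, 122 each. Density in the full windows was thus lower on both sides of the centre, and lowest from 15 to 17 Mb. In the short last stretch, from 17 Mb to the end, it was 155 peaks per Mb.

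The replicates gave a similar profile. The window from 11 to 12 Mb had 82, 52 and 32 peaks in replicates 1, 2 and 3, and was the densest full window of replicates 1 and 2 and the second densest of replicate 3. In replicate 3 the window from 3 to 4 Mb came first, with 34 peaks, and it was among the 3 densest in the other replicates, with 69 and 48. At the other end of the order, the window from 15 to 16 Mb had 30, 12 and 8 peaks, and that from 16 to 17 Mb had 33, 19 and 5. These were the 2 sparsest full windows of every replicate. In windows of 1 Mb the densest held 2.73, 4.33 and 6.8 times as many peaks as the sparsest in replicates 1, 2 and 3, and 1.81 times in the series-level list. The series-level ratio was 3.18 in windows of 500 kb, 1.57 in windows of 2 Mb, 3.17 in the better-ranked 50% of the list and 2.78 by covered base pairs. The last stretch, from 17 Mb to the end, is short, and its density recovered to 63.3, 34.7 and 28.6 peaks per Mb in replicates 1, 2 and 3. Over the 17 full windows, Spearman's rho of the peak numbers was 0.82 for replicates 1 and 2, 0.97 for replicates 1 and 3, and 0.84 for replicates 2 and 3, and Pearson's r was 0.82, 0.94 and 0.82 for the same pairs. Windows share a library and neighbours are not independent, so these are given as a description.

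**Figure D2:**
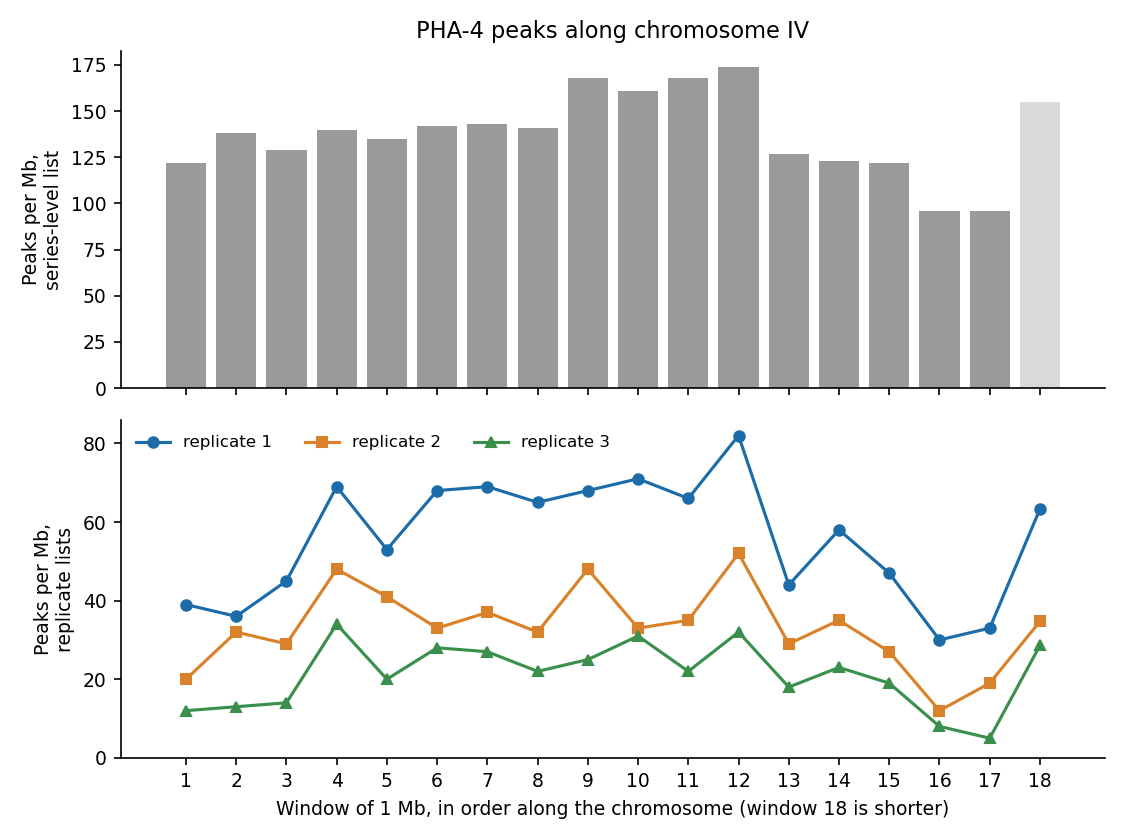
Bars in the upper panel give peaks per Mb of the series-level list in windows of 1 Mb, in order along chromosome IV, with the last, shorter window in light grey. The lower panel gives the same for each replicate list. Window 12, which runs from 11 to 12 Mb, is the highest full bar at 174, windows 16 and 17 are the lowest at 96, and the 3 replicates dip together there.

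The central 50% of the chromosome held 59.9%, 57.5% and 60.5% of the peaks of replicates 1, 2 and 3, or 59.3 ± 1.57% (SD, n = 3), and 55.6% of the series-level peaks (95% exact interval 53.6 to 57.6%). Of the 100 strongest peaks, 69 lay between 3 and 12 Mb, against 1372 of all 2401 peaks (57.1%). These bounds are not those of the central 50% and were not set in advance, so the count is only a description. Of the 69, 8 lay in a single stretch of 32.0 kb. The window from 11 to 12 Mb held 12 of the 100, that from 5 to 6 Mb held 10, and that from 16 to 17 Mb held 0. Support by replicates varied along the chromosome too. The share of series-level peaks overlapped by at least 2 replicates was highest from 3 to 4 Mb (34 of 140 peaks, 24.3%) and lowest from 15 to 16 Mb (7 of 96, 7.29%). Peak number and support did not always go together: the window from 10 to 11 Mb, with 168 peaks, had 14.3% of them supported in this way, and the window from 1 to 2 Mb had 10.1% of 138.

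Most of the 2401 peaks were not called in any single replicate. Of them, 1331 (55.4%, 95% exact interval 53.4 to 57.4%) had no peak of any replicate in them. Single replicates supported 637 peaks, pairs of replicates 228 and all 3 together 205. At least 1 replicate supported 1070 peaks (44.6%), against 46.8% of peaks on the other chromosomes and 46.3% of the whole list. At least 2 replicates supported 433 (18%, 16.5 to 19.6%), against 18.5% elsewhere and 18.4% of the whole list. All 3 supported 8.54% on chromosome IV, against 8.5% elsewhere and 8.51% of the whole list. Chromosome IV therefore stood close to the background at each level. Conversely, 91 (9.34%), 21 (3.63%) and 5 (1.36%) of the chromosome IV peaks of replicates 1, 2 and 3 were not in the series-level list, against 7.82%, 2.53% and 1.47% of their whole lists. The series-level list may rest on the same reads, since how it was made is not stated, and its overlap with the replicates is therefore no independent support.

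Replicate 1, the longest list, supplied most of the single support. It alone supported 439 peaks, replicate 2 alone 141 and replicate 3 alone 57. Among peaks with support of 2 replicates, 150 were shared by replicates 1 and 2, 57 by 1 and 3, and 21 by 2 and 3. Without replicate 1, at least 1 replicate supported 631 peaks. With at least 2 required, 226 peaks remained without replicate 1 and 262 without replicate 2, where only a pair of lists could supply them.

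Merging the replicate lists alone gave 1210 regions on chromosome IV. Of these, 444 (36.7%, 95% exact interval 34 to 39.5%) held peaks of at least 2 replicates, against 35.8% of the merged regions of all chromosomes. Peaks of all 3 replicates were held by 210 (17.4%), against 16.5% over all chromosomes. Regions of all 3 replicates had a median width of 776 bp and regions of 1 replicate 327 bp. Merging widens a region by itself, so these widths are not comparable as binding. The regions of 1 replicate numbered 540 from replicate 1, 164 from replicate 2 and 62 from replicate 3. Without replicate 1 there were 240 regions shared by the remaining lists, and without replicate 2 there were 264.

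Support, rank and width went together. With the 2401 peaks divided into 10 groups by rank, 234 of the 240 peaks in the first group were overlapped by at least 2 replicates and 1 by none. In the second group 145 of 240 had such support, in the third 44, and in the fourth 7. From the seventh group on there were 0, and in the last group 220 of 241 peaks overlapped no replicate peak. The median width was 902 bp in the first group, 567.5 bp in the second, 273 bp in the fifth and 150 bp in the last. A wider peak has more chance of being met by another, so width and support are not separate measures here. Replicate 3, the shortest list, met 199 peaks of the first group and 70 of the second, while replicate 1 met 233 and 199. The other chromosomes were not divided in this way, so none of this is shown to be particular to chromosome IV.

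**Figure D3:**
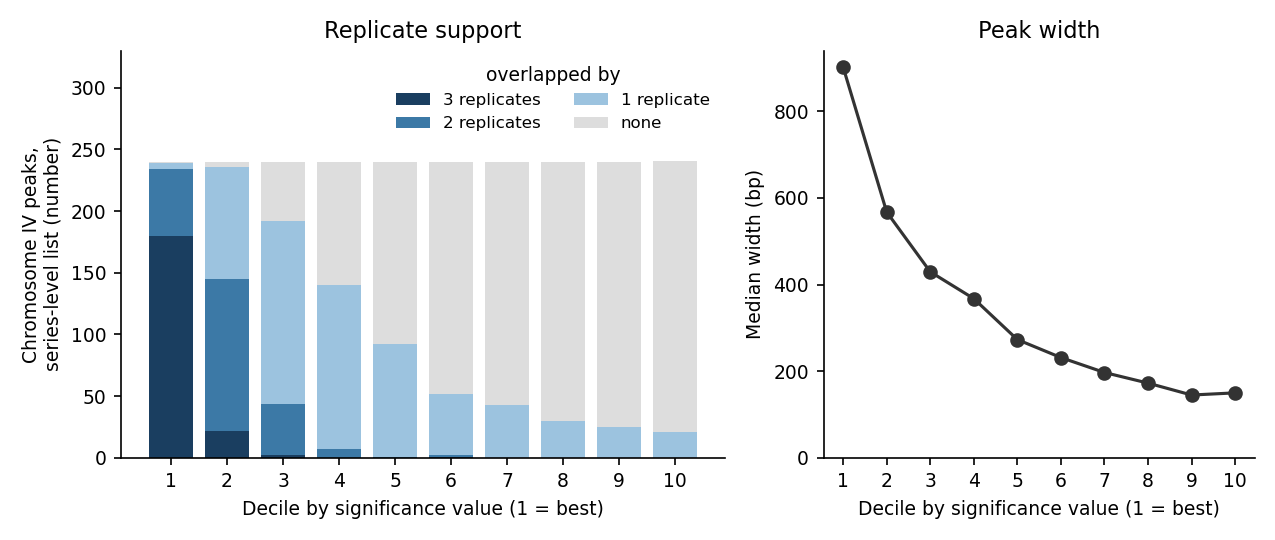
Chromosome IV peaks of the series-level list in 10 groups by significance value, from best to worst. Stacked bars (left) count the peaks overlapped by 3, 2, 1 or no replicate lists, and points (right) give the median width in bp. Support by at least 2 replicates falls to 7 of 240 peaks by the fourth group, and the median width is 902 bp in the first group and 150 bp in the last.

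The extremes of width followed the same order. Peaks of 1000 bp or more numbered 142, of which 135 overlapped a replicate peak, 119 overlapped peaks of at least 2 replicates and 85 of all 3. Peaks under 20 bp numbered 113, or 4.71% of the chromosome IV peaks against 3.53% of the others. Of these, 12 overlapped any replicate and 0 overlapped 2, and the best of them ranked 5289. Replicates 1, 2 and 3 had 11, 0 and 0 such peaks on the chromosome. Neighbouring peaks of a list were never closer than 201 bp, on chromosome IV or elsewhere.

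The strongest PHA-4 site of chromosome IV spanned 5990 bp, from 11694635 to 11700624, and had rank 11 in the series-level list, with a significance value of 5.90e-148. Replicate 3 called it as 1 peak of 5983 bp, from 11694744 to 11700726, the second best of its whole list (3.49e-106). Replicate 2 called 2 peaks in it, the better from 11694661 to 11698824 with rank 8 (2.12e-57). It was the best chromosome IV peak of both lists. Replicate 1 had 0 peaks in it. The nearest peaks of replicate 1 were 2014 bp to the left and 21315 bp to the right of its ends, and the left one, from 11692121 to 11692620, was 500 bp wide and ranked 5193 of 5320. Peaks covered 78.8% of the site in replicate 2 and 98.2% in replicate 3. The first-ranked site of the chromosome was thus called in 2 of the 3 libraries.

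The other 11 of the 12 strongest sites were called in all 3 replicates. The second, from 13388664 to 13395539 (6876 bp), had a best rank of 144, 58 and 68 in replicates 1, 2 and 3, and the third, from 12197086 to 12205377 (8292 bp), of 301, 116 and 641. With the first, these are the 3 widest chromosome IV peaks. The replicates resolved them into smaller ones: 5, 6 and 3 peaks in the second site and 6, 5 and 5 in the third. In the third site the peaks of replicates 1, 2 and 3 covered 63.6%, 59.4% and 25.4% of the length, so no replicate called it as a continuous domain.

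Sites 4, 5, 6 and 8 lay among the 100 best peaks of every replicate list. The fourth, from 5602878 to 5605413 (2536 bp), had best ranks of 55, 50 and 21 in replicates 1, 2 and 3. The fifth, from 8430931 to 8433178 (2248 bp), had 26, 30 and 25, and its peak in replicate 1, from 8431420 to 8433226, was the best chromosome IV peak of that list. The sixth, from 14615046 to 14619306, ranked 77, 53 and 55, and the eighth, from 2601857 to 2604937, ranked 100, 59 and 59.

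Among the remaining sites, the seventh, from 10933029 to 10937258, ranked 92, 454 and 96 in replicates 1, 2 and 3, and replicate 2 broke it into 5 peaks where replicate 1 called 2. The ninth, from 3852962 to 3856477, ranked 1482, 79 and 75. The 10th, from 3872722 to 3875606, ranked 35, 251 and 27. The 11th, from 5753200 to 5757024, ranked 86, 109 and 461, and the 12th, from 3864761 to 3867056, ranked 189, 271 and 24. The ninth, 10th and 12th belong to a single run of peaks described with the runs.

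**Figure D4:**
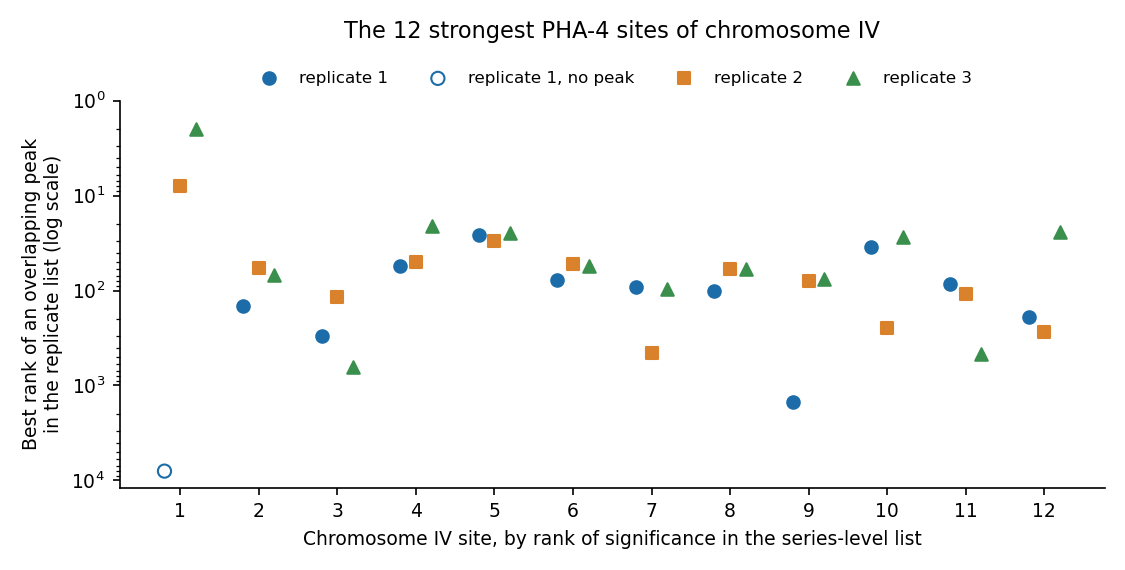
For each of the 12 strongest chromosome IV sites, ordered by significance in the series-level list, points give the best rank of an overlapping peak in each replicate list, on a log axis with rank 1 at the top. The open circle marks the site with 0 peaks in replicate 1 and is placed at an arbitrary height. The lists hold 5320, 2802 and 1900 peaks, so heights are read within a replicate: for replicate 1, site 5 is the highest at rank 26 and site 9 the lowest called one at rank 1482.

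Strong binding was not always broad. Of the 100 best chromosome IV peaks, 78 were 1000 bp or wider, with a median of 1558 bp and a range from 431 to 8292 bp, and 8 were narrower than 600 bp, a limit chosen after the widths were seen. Each of these 8 met exactly 1 peak in each of the 3 replicates. The best of them lay from 4749788 to 4750328 (541 bp), ranked 78 in the series-level list and ranked 58, 32 and 39 in replicates 1, 2 and 3. The next lay from 654699 to 655272 (574 bp), ranked 86, and ranked 45, 80 and 57. In the replicate lists it was also isolated: the nearest other peaks of replicates 1, 2 and 3 were 65488, 198929 and 141320 bp away on its right. The series-level list has no gap wider than 97.7 kb, and the nearest series-level neighbour was not measured. The width of the site from 654699 was 583, 551 and 552 bp in replicates 1, 2 and 3. The site from 4749788 was 536, 375 and 421 bp wide.

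Among the 100 best peaks, 92 were called in all 3 replicates and 8 were missing from exactly 1. Replicate 1 lacked 3, replicate 2 lacked 0 and replicate 3 lacked 5. None was missing from more than 1 replicate. Under a tolerance of 500 bp the count was 7. When an overlap of 50% of both peaks was required it was 25, of which 4, 10 and 11 were missing from replicates 1, 2 and 3. Among the 200 best peaks it was 37, of which replicate 3, the shortest list, lacked 26. Over all ranks, all 3 replicates supported 8.54% of the peaks on chromosome IV and 8.51% of the whole list. The best peaks of the other chromosomes were not counted in this way. Whether these numbers are particular to chromosome IV is therefore not known.

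Besides the first-ranked site, replicate 1 lacked a site from 10089824 to 10090694 (871 bp), which ranked 39 in replicate 2 and 41 in replicate 3, and a site from 3851228 to 3852703, which ranked 317 in replicate 2 and 426 in replicate 3. In the site from 10089824, the nearest peak of replicate 1 was 3861 bp away. In the site from 3851228 it was 358 bp away, so that gap closes under the tolerance of 500 bp. Of the sites missing from replicate 3, the best lay from 293669 to 297621 (3953 bp) and ranked 127 in replicate 1 and 34 in replicate 2. The nearest peak of replicate 3 was 994 bp to its left. The site from 10510234 to 10511762 ranked 93 in replicate 1 and 1512 in replicate 2. The remaining 3 ranked 327, 253 and 524 in replicate 1 and 1126, 2341 and 1874 in replicate 2.

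Other peaks were found in 1 replicate only. The best such chromosome IV peak of replicate 1 lay from 9875369 to 9876516 (1148 bp) and ranked 280. That of replicate 2 lay from 3849964 to 3850847 and ranked 324, and that of replicate 3 lay from 3851219 to 3851781 and ranked 427. Both of these lie in the longest run of peaks, where the peaks of the replicates start and end at different positions. The reads there were not examined. Of the 100 best chromosome IV peaks of replicates 1, 2 and 3, 85, 74 and 86 overlapped peaks of both other replicates and 5, 3 and 1 overlapped neither. Of the last 100, 82, 54 and 31 overlapped neither. Over all chromosome IV peaks, 540 of 974, 164 of 579 and 62 of 367 overlapped neither, in the same order. The lists differ in length, so 100 peaks are unlike parts of them and these counts are not compared between replicates. Stretches of 30 kb with peaks of 1 replicate and none of the others were little covered. The most that replicate 1 covered in such a stretch was 1812 bp, from 12690001 to 12720000, with a best rank of 1569. For replicate 2 it was 1131 bp, from 1270001 (best rank 1120), and for replicate 3 it was 582 bp, from 2900001 (best rank 1357). They were ordered by covered length, so a narrower peak of better rank in such a stretch is not excluded.

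The highest-ranked chromosome IV peak with no replicate support lay from 2768808 to 2770445, was 1638 bp wide and ranked 865 in the series-level list. The next such peak lay beside it, from 2772579 to 2773758, and ranked 1498. Replicate peaks lay on both sides of each without touching it, some near and some far. On its left, the first was 3033, 443 and 14633 bp from the nearest peaks of replicates 1, 2 and 3. On its right these distances were 1423, 3767 and 3762 bp. The second was 511, 4214 and 18404 bp from peaks of replicates 1, 2 and 3 on its left. On its right it was 534, 454 and 449 bp from them. The third, from 7982067 to 7982888, ranked 2601.

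Chromosome IV held more long runs of closely spaced PHA-4 peaks than any other chromosome in the series-level list. A run was built by joining peaks separated by at most 2 kb and kept if it was at least 10 kb long. There were 16 on chromosome IV, against 15 on III, 11 on X, 10 on I, 9 on V and 8 on II. Per 10 Mb of span, chromosome IV had 9.15 runs and chromosome III 10.9, with 4.31 to 6.64 on the others. No test was made of these differences, and the number depended on the limits: with gaps of at most 1 kb there were 4 runs on chromosome IV, and with gaps of up to 5 kb there were 109. The 16 runs spanned 241 kb and held 164 of the 2401 peaks (6.83%), among them 34 of the 100 best. On chromosome III runs held 153 of 2175 peaks, so a share of this size was not particular to chromosome IV. They held 99 of 2186 on I, 83 of 1884 on II, 59 of 1817 on V and 77 of 1941 on X. Of the 12 strongest sites, 8 lay in a run. The width of a peak counts towards the length of its run, and strong peaks are wide. Strong peaks therefore fall in runs partly by construction, and these counts were not made for the other chromosomes.

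The longest run covered 32.0 kb, from 3846804 to 3878787, in the window with the best replicate support. It held 17 series-level peaks, of which 8 were among the 100 best of the chromosome, and 10, 22 and 17 peaks of replicates 1, 2 and 3. Replicate 1, the longest list, had the fewest peaks there and covered the least. The replicates also differed in how much of it they joined: the run they built there reached 28.4 kb in replicate 2 (from 3846789 to 3875224), 15.7 kb in replicate 3 (from 3860539 to 3876270) and 10.6 kb in replicate 1 (from 3865005 to 3875563). The right part, around the strong site from 3872722 to 3875606, was common to all. Replicate 1 ranked its peak there 35, from 3873435 to 3875563 (2129 bp), and replicate 3 ranked its own 27, from 3873455 to 3875517 (2063 bp). Replicate 2 had 2 smaller peaks in it, the better of 890 bp with rank 251. In the left part, the best peak at the site from 3852962 had rank 1482 of 5320 in replicate 1, 79 of 2802 in replicate 2 and 75 of 1900 in replicate 3.

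Other long runs were covered most by replicate 1. The second, 20.7 kb from 5590123 to 5610838, was covered for 39.5%, 23.2% and 25.1% by replicates 1, 2 and 3. The fourth, 16.4 kb from 4466508 to 4482861, was covered for 29.4%, 24.0% and 15.3%, and the fifth, 16.1 kb from 9114566 to 9130678, for 34.3%, 13.6% and 5.53%. Replicate 1 covered more than either other replicate in 12 of the 16 runs, replicate 2 in 2 and replicate 3 in 2. Over the whole of chromosome IV replicate 1 also covered the most, 2.51% against 1.69% and 1.16% in replicates 2 and 3. Its lead in most runs was therefore not particular to the runs. The third run, 20.4 kb from 14604430 to 14624877, was highest in replicate 2 (32.0%, 44.3% and 30.2% in replicates 1, 2 and 3). The sixth, 15.8 kb from 10968964 to 10984796, was nearly equal in replicates 1 and 2, at 19.7% each, and covered for 13% in replicate 3.

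In the run that holds the first-ranked site, 12.3 kb from 11688289 to 11700624, coverage was 4.33% in replicate 1, 42.0% in replicate 2 and 47.7% in replicate 3. Over the 16 runs the median coverage by replicate 1 was 30.7%, and this run was its lowest. The best peak of replicate 1 in it ranked 5078 of 5320. By contrast, the run from 8527339 to 8542752 (15.4 kb) was called as a run in replicate 1 too, from 8527480 to 8542712, and was covered for 40.7%, 25.4% and 20.3% by replicates 1, 2 and 3. Within the replicate lists, runs of at least 10 kb on chromosome IV numbered 5, 2 and 1 in replicates 1, 2 and 3.

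**Figure D5:**
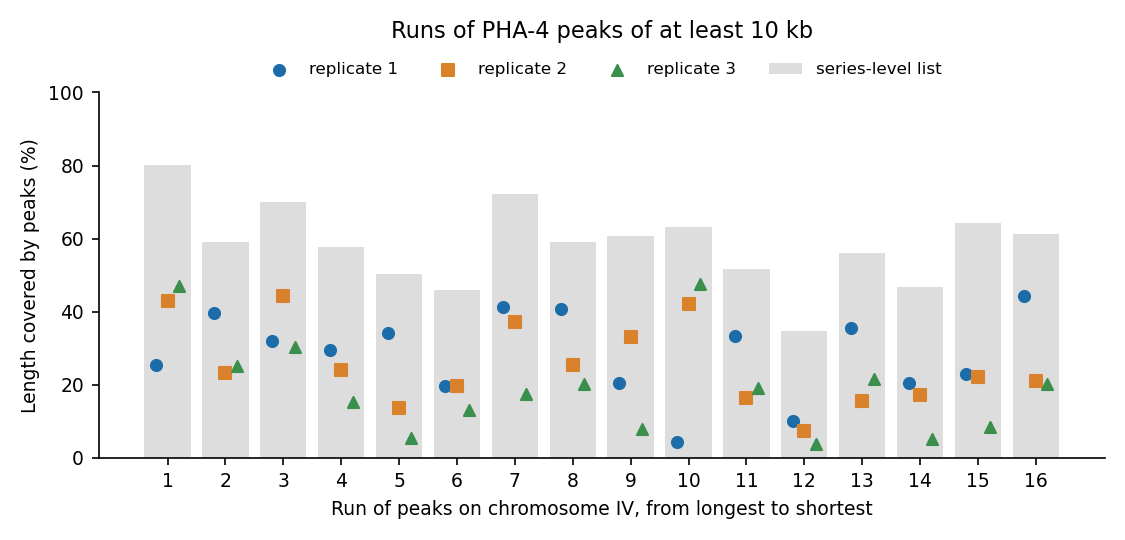
For the 16 runs of at least 10 kb on chromosome IV, ordered from longest to shortest, the bar gives the percent of the run's length covered by series-level peaks and the points the percent covered by peaks of each replicate. Replicate 1 is the lowest of the replicates at run 1 (25.3%) and at run 10 (4.33%), and the highest in 12 of the 16 runs. Over the whole chromosome replicates 1, 2 and 3 cover 2.51%, 1.69% and 1.16%.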

How the data were processed

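The authors called peaks with PeakSeq on build WormBase WS220, per the file headers. Each deposited peak has a single significance value below 0.001, a p-value or a q-value (which of them is not stated). The aligner, the versions, the filters and the making of the series-level list are not given in the sources used here. Input libraries were not analysed, and depth is unknown.

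Overlaps, merged regions, windows and runs were computed in Python 3.11.15 (numpy 2.4.6, pandas 2.3.3, scipy 1.17.1). Functions were tested on simulated data, and overlap counts checked against bedtools 2.31.1 were identical in all 12 directions. Sharing meant an overlap of at least 1 bp. Differences between chromosome IV and the other chromosomes were tested over the 3 ChIP replicates by an exact sign-flip test. Intervals of shares are 95% exact Clopper-Pearson intervals and reflect counting alone. Named sites were the 12 best series-level peaks, the 3 widest, the 6 longest runs, the densest and sparsest windows, the best peaks missing from 1 replicate, and the best peaks lacking support. The members and lists were chosen with earlier results of these data known.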

Additional observations from a re-analysis of the deposited data

How the results depend on the processing

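The mean excess of chromosome IV over its share of the span and the mean width difference kept their sign under the 11 alternatives tried for them. Their size changed. Replicate 1 by itself had a wider median on chromosome IV, 377 against 374.5 bp. The excess of 1.98 percentage points was 1.12 by covered base pairs, and the width difference of -18.2 bp ranged from -28.5 bp without replicate 1 to -7.75 bp without replicate 3. The difference in overlap with other replicates, 0.158 percentage points, was 2.47 with lists cut to the length of the shortest and changed sign with reciprocal overlap of 50% (-3.97), with midpoints within 200 bp (-1.84) and with 1 replicate left out, where it ranged from -0.58 to 1.93 (-0.489 without replicate 3). The cause was not tested. With the better-ranked 50% of each list, counts fell by construction: 536, 220 and 103 peaks had support of at least 1, at least 2 and all 3 replicates. Regions of at least 2 and of 3 replicates numbered 225 and 103, and runs numbered 9 in the series-level list and 1 in replicate 1. The runs of replicates 2 and 3 stayed at 2 and 1. Support by all 3 replicates fell to 100 peaks with reciprocal overlap of 50% and to 122 with midpoints within 200 bp. With 1 replicate left out, at least 1 replicate supported 631 to 1013 peaks, at least 2 supported 226 to 355, and shared regions numbered 240 to 362. The central share was 61.5% in the better-ranked 50% of the series-level list, and 59.2% by covered base pairs there and 61.0% as the mean of the replicates.

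Runs depended on their limits. With a gap of 1 kb there were 4 in the series-level list and 0 in each replicate, and with a gap of 5 kb there were 109, and 23, 14 and 6 in replicates 1, 2 and 3. Runs of at least 5 kb numbered 84, and 24, 8 and 10. Runs of at least 15 kb numbered 8 in the series-level list and 1 in each of replicates 1, 2 and 3. Peaks missing from 1 replicate numbered 25 with reciprocal overlap of 50%, 3 among the best 50 and 37 among the best 200. No paired analysis was possible because the numbers shared by ChIP and input libraries need values of the input libraries, which were not used. The sign-flip tests compare chromosomes within a replicate. Unknown depth limits every comparison of list lengths.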

Other observations

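Stretches of chromosome IV without PHA-4 peaks were short in the series-level list. The median gap between neighbouring peaks was 2700 bp, and 27 gaps reached 50 kb. The widest, 97.7 kb from 5402442 to 5500138, held 1 peak of replicate 1 and 0 of replicates 2 and 3. In the replicate lists the widest gaps were 173 kb (from 14119251 to 14292267), 295 kb (from 14119317 to 14414231) and 361 kb (from 4822202 to 5183654) in replicates 1, 2 and 3. The gap of replicate 3 held 16 peaks of replicate 1, 5 of replicate 2 and 43 of the series-level list, so it was not empty in the other lists.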
